A study of Mus musculus with 15 samples.

Results

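Biliary cells of mice treated with DDC (diethoxycarbonyl-dihydrocollidine, a compound that injures the bile ducts) were compared with biliary cells of untreated mice by ATAC-seq, an assay in which a transposase inserts sequencing adapters into accessible chromatin. The comparison took in every library that its labels name as biliary, 3 from DDC-treated and 3 from untreated mice, 6 of the 15 mouse liver libraries of the series. The others were hepatocytes and reprogrammed hepatocytes of DDC-treated mice and hepatocytes of untreated mice, 3 libraries each. Cells went into the assay straight from the sort, with no culture and no treatment after it, per the labels. DDC treatment before isolation is the one stated difference between the biliary groups. Genotype, strain, sex, age, the dose and duration of DDC and the markers of the sort are stated nowhere in the labels. Nor do they say that the 3 libraries of a group came from separate animals, so the p-values measure the spread between libraries, which may be technical.

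Biliary epithelial cells, or cholangiocytes, line the bile ducts, carry the keratins Krt7 and Krt19 and modify bile by secreting chloride, bicarbonate and water. When ducts are blocked or injured they multiply, form new ductules and turn on genes for chemokines, cytokines and matrix, many of them targets of the transcription factors NF-kB and AP-1. DDC causes porphyrin plugs in bile ducts and is a standard way to provoke this ductular reaction in mice. Accessible chromatin marks promoters and enhancers that factors can reach. It is not a measure of transcript level.

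Nuclear reads in regions numbered 5151190 to 10395918 per library in DDC biliary cells and 2439831 to 4389653 in untreated biliary cells, and 2.19 to 3.93% of regions had no read in DDC biliary cells, against 8.88 to 15.1% in untreated biliary cells. Mitochondrial reads made up 7.99, 12.9 and 8.70% of all reads in regions in DDC biliary cells and 20.3, 21.9 and 13.7% in untreated biliary cells. The groups did not overlap in this share (difference of -8.79 percentage points, two-sided exact permutation test, p = 0.1, the smallest that 3 against 3 libraries can give). All values below are therefore nuclear RPM, the reads of a region for every 1000000 reads that fell in nuclear regions. A principal component analysis put 57% of the variance on a first axis that separated DDC from untreated libraries. Untreated library 1 stood apart on the second axis (19.5% of the variance). Within each group every pair of libraries differed beyond sampling noise, with 2.65 to 4.41 chi-square units for each degree of freedom, and all 6 were kept as separate libraries.

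The duct marker Krt19 was open in both groups. Krt19 had 119, 129 and 144 nuclear RPM in DDC biliary cells and 89.2, 135 and 153 in untreated biliary cells, against 5.55 to 9.23 in DDC hepatocytes. Untreated hepatocytes had Krt19 at 69.4, 19.8 and 8.52 nuclear RPM, from 28 reads in all. Alb, the albumin gene of hepatocytes, had 47.4 to 117 nuclear RPM in DDC biliary cells and 71.3 to 160 in untreated biliary cells, against 540 to 930 in DDC hepatocytes. Krt7 had 70.9 to 79.3 nuclear RPM in DDC biliary cells and 6.7 to 16.2 in DDC hepatocytes, and Epcam 192 to 232 and 26.8 to 28.2. Sox9 set these cell types less apart, with 127 to 151 in DDC biliary cells and 52 to 125 in DDC hepatocytes. By Krt19, Krt7, Epcam and Alb both biliary groups thus stood apart from DDC hepatocytes, with some hepatocyte signal in each.

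For each gene, the regions that touch it, or that lie nearest to it within 50 kb, were added up, and changes are log2(nuclear RPM + 1) differences, DDC minus untreated, given with their SE (n = 3 per group). A gene end below is either boundary of a gene, its start included. Of 16081 genes tested, 2321 were higher in DDC biliary cells (14.4%) and 2139 lower (13.3%) at an adjusted p under 0.05. Either direction took in 27.7% of genes, and the 3 libraries of the groups did not overlap for 42.5% of genes. The median change over all genes was -0.02. On the deposited scaling, with mitochondrial reads in the total, that median was 0.13 and 78.3% of called genes were higher, against 52.0% on nuclear RPM. Of called regions 81.4% were higher on the deposited scaling and 68.9% on nuclear RPM. The calls in the upward direction reached further: 814 higher genes and 195 lower genes had a change of 1 or more in size without overlap of the groups.

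The 4 genes Ccl2, Il23a, Csf2 and Msln were picked as markers of the DDC response with earlier results on these libraries known, and their values describe that response. Ccl2 encodes the chemokine that draws monocytes. It had 234, 141 and 200 nuclear RPM in DDC biliary cells, against 29.8, 25.4 and 23.0 in untreated biliary cells (change 2.81 ± 0.17, adjusted p = 1.59e-06). Il23a encodes the subunit that defines the cytokine IL-23. It had 46.3, 36.3 and 38.7 nuclear RPM in DDC biliary cells, against 3.78, 4.10 and 3.19 in untreated biliary cells (3.14 ± 0.23, adjusted p = 3.69e-06). Csf2 encodes the growth factor of granulocytes and macrophages, GM-CSF. Its summed accessibility was 109, 78.8 and 114 nuclear RPM in DDC biliary cells, against 15.5, 11.1 and 6.61 in untreated biliary cells (3.12 ± 0.24, adjusted p = 5.13e-06). Msln encodes mesothelin, a surface glycoprotein of mesothelium that injured and transformed ductal epithelia also carry. It had 94.7, 56.1 and 85.2 nuclear RPM in DDC biliary cells, against 13.2, 9.84 and 4.78 in untreated biliary cells (3.01 ± 0.29, adjusted p = 1.63e-05). For all 4 genes the lowest DDC library lay above the highest untreated library, and DDC library 2, the shallowest of its group, was the lowest of its group each time. The groups did not overlap for 42.5% of all genes.

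**Figure D1:**
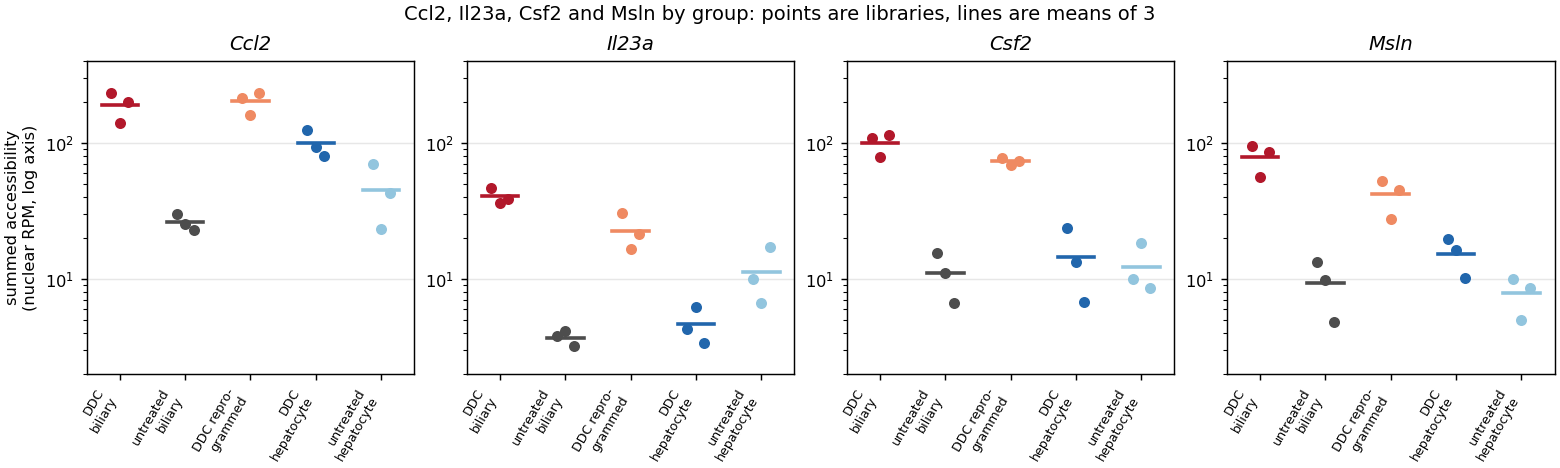
Summed accessibility in nuclear RPM (log axis) of Ccl2, Il23a, Csf2 and Msln in each of the 15 libraries, by group, with the mean of 3 libraries as a line. DDC biliary libraries lie above untreated biliary libraries in each panel, for Il23a at 36.3 to 46.3 against 3.19 to 4.10 nuclear RPM.

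Regions of the 4 genes differed in where the gain lay. All 5 regions tied to Ccl2 were higher in DDC biliary cells, as were 15.4% of the 75479 regions tested, while 6.93% were lower (22.3% in either direction). The region over the gene itself, chr11:82031909-82040920, had 155, 93.4 and 132 nuclear RPM in DDC biliary cells and 13.6, 14.8 and 15.5 in untreated biliary cells (3.0 ± 0.18, adjusted p = 6.65e-08), the lowest adjusted p of all regions. Another 4 regions 14958 to 27981 bp from Ccl2 changed by 1.62 to 2.75. The gene Il23a had 1 region, chr10:128296795-128299011, which spans 1 of its ends and changed by 3.14 ± 0.24. Msln's main region, chr17:25753074-25758015, also lies at a gene end, with 90.2, 54.7 and 80.9 nuclear RPM in DDC biliary cells and 12.8, 8.61 and 4.78 in untreated biliary cells (3.03 ± 0.27).

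At Csf2 the gain lay away from the gene. Of its 11 regions, 5 were higher in DDC biliary cells, all of them 9738 to 39719 bp from the gene on one side. The region 9738 bp away, chr11:54236761-54237532, had 16.8, 14.0 and 15.3 nuclear RPM in DDC biliary cells and 0.00, 0.41 and 1.37 in untreated biliary cells (3.45 ± 0.38, adjusted p = 7.99e-06). The region 29321 bp away had 39.2, 34.0 and 39.4 nuclear RPM in DDC biliary cells and 4.16, 4.92 and 2.28 in untreated biliary cells (3.05 ± 0.27). The region over the gene start, chr11:54249266-54249904, had 1.92, 0.971 and 2.64 nuclear RPM in DDC biliary cells and 1.13, 0.82 and 0.00 in untreated biliary cells and was not called (0.81 ± 0.46, adjusted p = 0.227). These are few reads, and the groups overlapped there. When only regions at most 1 kb from a gene end were counted, Csf2 was no longer called (0.81, adjusted p = 0.231). The assignment to the nearest gene does not show that a region acts on Csf2.

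**Figure D2:**
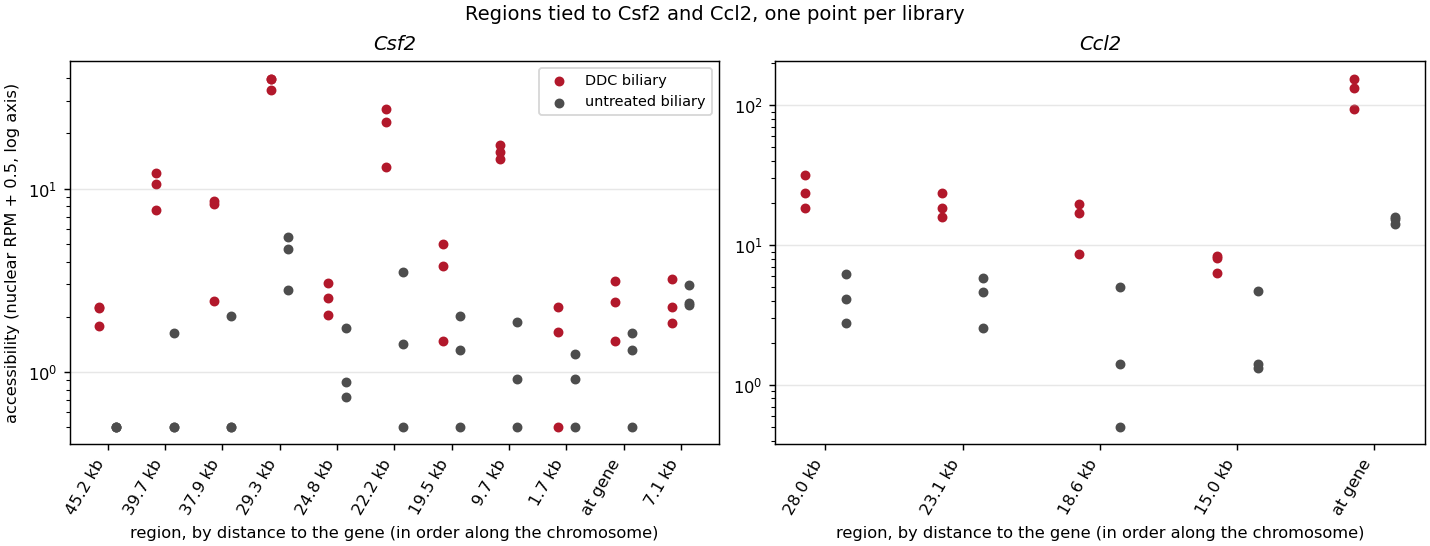
Accessibility of each region tied to Csf2 (left) and Ccl2 (right) in nuclear RPM plus 0.5 (log axis), 1 point per library, regions in order along the chromosome and named by their distance to the gene. At Csf2 the clear gaps lie 9.7 to 39.7 kb from the gene while the region at the gene overlaps between the groups, and at Ccl2 the region at the gene has 93.4 to 155 nuclear RPM in DDC biliary cells against 13.6 to 15.5 in untreated biliary cells.

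The Csf2 start window is shown because its region was not called while regions farther away were higher. Start windows come from RefSeq (build GRCm38.p6) and run from 250 bases before to 50 bases after a gene's start, printed 5′ to 3′ on the gene's strand. Capitals mark matches to an AP-1 motif, TGANTCA, or an NF-kB motif, GGG followed by any pair of letters and TTTCC, searched on both strands, so that the NF-kB motif can appear as its reverse complement. No window shown holds both motifs. The window of Csf2, chr11:54249850-54250149 on the minus strand, holds no match.
Csf2: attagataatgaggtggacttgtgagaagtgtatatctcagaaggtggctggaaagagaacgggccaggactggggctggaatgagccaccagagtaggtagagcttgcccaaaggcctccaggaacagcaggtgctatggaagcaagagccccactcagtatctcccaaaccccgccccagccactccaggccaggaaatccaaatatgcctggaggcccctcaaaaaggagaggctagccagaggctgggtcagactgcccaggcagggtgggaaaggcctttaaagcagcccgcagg

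The 15 higher genes with the lowest adjusted p included Ccl2, Il23a and Csf2. They were chosen among genes whose groups did not overlap and whose change was 1 or more in size, so both features come from the choice. Sspn, which encodes sarcospan of the dystrophin complex, had 12 of its 16 regions higher (15.4% of all regions). Its sum was 147, 106 and 159 nuclear RPM in DDC biliary cells against 23.4, 23.4 and 18.2 in untreated biliary cells (2.60 ± 0.16, adjusted p = 1.74e-06). Gjb5, a connexin of stratified epithelia, had 87.5, 58.4 and 72.9 nuclear RPM in DDC biliary cells against 10.6, 6.56 and 9.34 in untreated biliary cells (2.92 ± 0.21). Fam124b had 47.0, 42.1 and 46.3 nuclear RPM in DDC biliary cells against 6.05, 5.33 and 3.64 in untreated biliary cells (2.96 ± 0.23). Tnf, the inflammatory cytokine, had 106, 98.6 and 108 nuclear RPM in DDC biliary cells against 34.8, 32.0 and 26.9 in untreated biliary cells (1.72 ± 0.13). Abcc8, the sulfonylurea receptor of potassium channels, changed by 2.30 ± 0.17, Neurl1a, an E3 ubiquitin ligase, by 2.12 ± 0.15, and Ptgfrn, a tetraspanin partner, by 2.47 ± 0.20. Inava, an adaptor of innate immune signalling in gut epithelium, changed by 1.80 ± 0.14, the scaffold gene Ahnak2 by 1.91 ± 0.14 and the xylosyltransferase gene Gxylt2 by 1.97 ± 0.16. Gm35751 (1.96 ± 0.16) and Rpl3 (1.90 ± 0.15) were also among them. Calls for Abcc8, Ahnak2, Gxylt2 and Rpl3 were lost when regions within 1 kb of a gene end were used alone (changes of 0.43, 0.05, 0.73 and 0.51), and those of Gjb5, Tnf and Ptgfrn when all 15 libraries shared one fit (adjusted p = 0.0775, 0.504 and 0.104). The main region of Ahnak2, chr12:112793361-112798621, lies in the gene body but touches a start window. It had 99.4, 88.3 and 96.7 nuclear RPM in DDC biliary cells against 17, 21.7 and 21.9 in untreated biliary cells (2.18 ± 0.15).

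The 10 lower genes were chosen in the same way. Irs1, the adaptor of insulin and IGF receptors, had 102, 117 and 95.3 nuclear RPM in DDC biliary cells against 244, 244 and 282 in untreated biliary cells (-1.29 ± 0.11, adjusted p = 6.71e-06). Cp, which encodes the copper-carrying ferroxidase ceruloplasmin, had 271, 375 and 287 nuclear RPM in DDC biliary cells against 613, 666 and 849 in untreated biliary cells (-1.19 ± 0.13). Thrb, a thyroid hormone receptor, had 69.9, 87.2 and 74.8 nuclear RPM in DDC biliary cells against 171, 175 and 164 in untreated biliary cells (-1.13 ± 0.11). Grb14, which binds and restrains the insulin receptor, changed by -1.21 ± 0.12, Cbs, the cystathionine synthase of sulfur metabolism, by -1.23 ± 0.14, and Pde3a, a cyclic nucleotide phosphodiesterase, by -1.56 ± 0.17. Zscan5b had the largest fall of the 10 (-1.83 ± 0.20), ahead of C2cd4b (-1.31 ± 0.16), Gm46911 (-1.22 ± 0.14) and Fgf12 (-1.10 ± 0.12). Fgf12 and C2cd4b lost their calls with all 15 libraries fitted (adjusted p = 0.265 and 0.284). At Irs1 the region at a gene end, chr1:82289825-82294349, touches a start window and changed by -1.48 ± 0.13. At Cp the region chr3:19956360-20004886, which covers most of the gene with 1 of its ends and touches a start window, changed by -1.25 ± 0.10. The region at Cp is 48527 bp wide, the widest in the data.

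**Figure D3:**
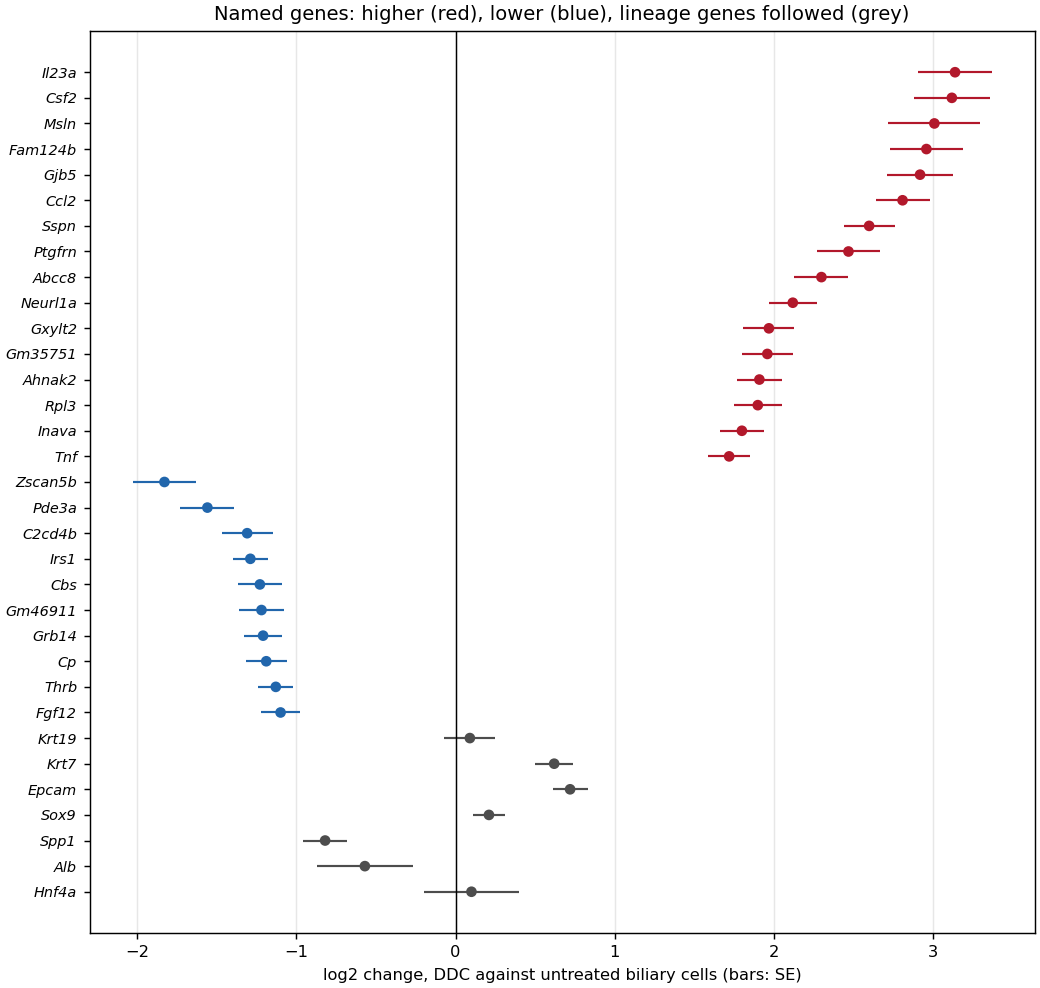
Log2 change of summed accessibility, DDC minus untreated biliary cells (points, with the SE as bars), for the named genes. The higher genes (red) run from 1.72 to 3.14 and the lower genes (blue) from -1.83 to -1.10, and the lineage genes (grey) lie between -0.82 and 0.72. The red and blue genes were chosen for a change of 1 or more in size, apart from Msln, a marker gene, so the gap to the grey genes comes from the choice.

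Chemokine and leukocyte adhesion genes mostly rose. This list, which holds the marker Ccl2, and the lists below were composed with earlier results of these data known. Their counts may therefore come partly from the choice. Of 15 members tested, 12 were higher and 1 lower, with a median change of 0.93 (all genes 14.4% higher, 13.3% lower, median -0.02). Vcam1, an adhesion molecule that holds leukocytes, had 66.7, 83.9 and 131 nuclear RPM in DDC biliary cells against 35.1, 17.2 and 32.3 in untreated biliary cells (1.70 ± 0.26). Icam1, another, had 89.7, 61.7 and 80.6 nuclear RPM in DDC biliary cells against 36.3, 23.4 and 27.1 in untreated biliary cells (1.40 ± 0.18). Neither overlapped between the groups, as held for 42.5% of all genes. Cx3cl1, the membrane-bound chemokine of monocytes and T cells, had 141, 117 and 132 nuclear RPM in DDC biliary cells against 43.4, 50.4 and 51.7 in untreated biliary cells (1.40 ± 0.12). The neutrophil chemokine genes Cxcl1, Cxcl2 and Cxcl5 changed by 0.72 ± 0.12, 1.18 ± 0.16 and 0.60 ± 0.16. Ccl7, a neighbour of Ccl2 and likewise a monocyte chemokine, changed by 1.90 ± 0.31, Cxcl16 by 0.64 ± 0.10 and Ccl5, which draws T cells, by 0.93 ± 0.18. Cxcl9 was called from at most 5.44 nuclear RPM and lost the call in edgeR, in DESeq2 and without single libraries. The member that fell was Cxcl12, the chemokine that retains stem cells and lymphocytes. It had 34.1, 38.4 and 36.1 nuclear RPM in DDC biliary cells against 86.1, 59.4 and 56.7 in untreated biliary cells (-0.85 ± 0.16), so this member ran against the rest of its list. In the fit of all 15 libraries 4 members were higher (Ccl2, Ccl7, Vcam1 and Icam1) and 0 lower.

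Ccl20, the chemokine of dendritic cells and Th17 cells, rose at its start. Its summed accessibility was 56.3, 43.3 and 57.4 nuclear RPM in DDC biliary cells against 29.5, 27.9 and 35.8 in untreated biliary cells (0.73 ± 0.16). The region over the start, chr1:83116192-83117067, had 14.0, 7.96 and 13.5 nuclear RPM in DDC biliary cells against 4.16, 3.69 and 2.73 in untreated biliary cells (1.48 ± 0.32, adjusted p = 0.00268). Its start window, chr1:83116516-83116815 on the plus strand, is shown for its NF-kB match and has no AP-1 match.
Ccl20: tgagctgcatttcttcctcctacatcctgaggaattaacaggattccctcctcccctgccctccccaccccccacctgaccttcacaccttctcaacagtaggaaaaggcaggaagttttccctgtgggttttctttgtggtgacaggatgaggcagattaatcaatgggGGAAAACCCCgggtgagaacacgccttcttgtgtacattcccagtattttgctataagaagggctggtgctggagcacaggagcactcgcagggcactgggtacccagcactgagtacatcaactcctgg

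Among 20 cytokine genes tested, the markers Il23a and Csf2 included, 10 were higher and 0 lower, with a median change of 0.67 (all genes 14.4% higher, 13.3% lower, median -0.02). Beside Il23a, Csf2 and Tnf, the growth factor genes Csf1 (0.95 ± 0.16) and Il34 (1.36 ± 0.13), both ligands of the macrophage receptor Csf1r, rose. Il34 had 163, 154 and 126 nuclear RPM in DDC biliary cells against 64.6, 49.6 and 56.3 in untreated biliary cells. Lif, a cytokine of the IL-6 family, had 238, 197 and 206 nuclear RPM in DDC biliary cells against 114, 88.1 and 92.5 in untreated biliary cells (1.12 ± 0.12). Il1f6, which encodes the epithelial cytokine IL-36 alpha, had 31.5, 17.9 and 22.0 nuclear RPM in DDC biliary cells against 1.51, 0.00 and 2.73 in untreated biliary cells (3.52 ± 0.43). The 3 genes had no overlap between the groups, as held for 42.5% of all genes. Il6 had 0.962 to 2.05 nuclear RPM in DDC biliary cells and 0.756 to 1.23 in untreated biliary cells and was not called (0.36, adjusted p = 0.563). Il33 (-0.19) and Il18 (-0.32) were not called either. In the fit of all 15 libraries 7 members were higher and 0 lower.

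Il1rn encodes the antagonist of the interleukin-1 receptor. It had 113, 94.3 and 146 nuclear RPM in DDC biliary cells against 50.6, 55.3 and 33.9 in untreated biliary cells (1.32 ± 0.18). The region over its upstream start, chr2:24334982-24337931, changed by 1.48 ± 0.18 (adjusted p = 2.06e-05). The window there, chr2:24336610-24336909 on the plus strand, has 1 AP-1 match and is the one shown. Another 2 start windows of Il1rn, chr2:24345041-24345340 and chr2:24345121-24345420, each have 1 NF-kB match. The region that touches them, chr2:24344402-24345503, was not called (0.63 ± 0.45, adjusted p = 0.35).
Il1rn: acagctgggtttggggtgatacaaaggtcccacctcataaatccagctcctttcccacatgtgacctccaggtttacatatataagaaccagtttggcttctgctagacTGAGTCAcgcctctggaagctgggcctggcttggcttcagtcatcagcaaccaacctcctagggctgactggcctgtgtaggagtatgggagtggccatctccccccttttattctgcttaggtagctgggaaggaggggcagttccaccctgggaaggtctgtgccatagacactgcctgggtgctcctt

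Of 21 genes of NF-kB signalling and TNF receptors, 11 were higher and 0 lower, with a median change of 0.38 (all genes 14.4% higher, 13.3% lower, median -0.02). Nfkbia, which holds NF-kB in the cytoplasm, had 370, 360 and 429 nuclear RPM in DDC biliary cells against 273, 211 and 218 in untreated biliary cells (0.72 ± 0.11). Bcl3, a nuclear partner of NF-kB, changed by 0.65 ± 0.09, and Nfkbiz, a co-activator of its secondary targets, by 0.42 ± 0.09. Tnfrsf1b, a TNF receptor, had 146, 120 and 136 nuclear RPM in DDC biliary cells against 102, 63.5 and 63.1 in untreated biliary cells (0.84 ± 0.16). Cd40 (1.48 ± 0.34), a receptor of T cell help, and Tnfaip2 (1.18 ± 0.22) rose as well. None of these genes overlapped between the groups, as held for 42.5% of all genes. Rela (0.20), Nfkb2 (0.14) and Tnfaip3 (0.14), an inhibitor that NF-kB itself turns on, were not called. In the fit of all 15 libraries 4 members were higher and 0 lower, and in fits without a single library 7 to 11 were higher.

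The AP-1 family moved in both directions: 5 of 11 tested members were higher and 2 lower, with a median of 0.18 (all genes 14.4% higher, 13.3% lower). Without DDC library 1 or 3 the higher members were 2, and without untreated library 3 they were 3. Batf, a partner of Jun proteins, had 38.6, 27.6 and 29.1 nuclear RPM in DDC biliary cells against 15.1, 13.5 and 13.7 in untreated biliary cells (1.10 ± 0.20). The small Maf gene Mafg changed by 0.61 ± 0.11 and Fosl1 by 0.88 ± 0.25, the last called in 3 of the 6 fits without a single library. Jun, by contrast, had 398, 460 and 391 nuclear RPM in DDC biliary cells against 594, 554 and 679 in untreated biliary cells (-0.55 ± 0.10). Atf3, a stress-induced factor that pairs with Jun, had 496, 614 and 749 nuclear RPM in DDC biliary cells against 1150, 1180 and 1490 in untreated biliary cells (-1.05 ± 0.14, adjusted p = 0.000131). Groups were separate for both genes, as for 42.5% of all genes. Fos (-0.05) was not called. In the fit of all 15 libraries 0 members were higher and Jun and Atf3 remained lower.

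Atf3 also moved both ways within its locus. Of its 9 regions, 4 were higher and 2 lower in DDC biliary cells (all regions 15.4% higher, 6.93% lower). The large region over the gene, chr1:191161698-191187445, fell to 379, 507 and 616 nuclear RPM in DDC biliary cells, against 1070, 1080 and 1390 in untreated biliary cells (-1.26 ± 0.12, adjusted p = 1.90e-06). Its start window, chr1:191183284-191183583 on the minus strand, is shown as the window of the lower region, and it has neither motif and 64.7% G or C.
Atf3: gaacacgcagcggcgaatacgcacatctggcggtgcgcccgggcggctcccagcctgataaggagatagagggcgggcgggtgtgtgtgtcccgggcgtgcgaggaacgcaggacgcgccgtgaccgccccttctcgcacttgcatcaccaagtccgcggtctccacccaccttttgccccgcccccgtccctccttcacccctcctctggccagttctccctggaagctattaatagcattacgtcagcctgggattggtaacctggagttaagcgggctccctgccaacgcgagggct

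Genes of mucosal surfaces and of the skin barrier had the largest median change of the lists. Of 23 tested, the marker Msln included, 17 were higher and 1 lower, with a median of 1.60 (all genes 14.4% higher, 13.3% lower, median -0.02). Without a single library 15 to 18 were higher. Peptidoglycan-binding genes rose together. Pglyrp3 had 36.8, 25.2 and 37.2 nuclear RPM in DDC biliary cells against 2.64, 3.69 and 2.96 in untreated biliary cells (3.04 ± 0.26). Pglyrp4 had 33.8, 27 and 31.4 nuclear RPM in DDC biliary cells against 3.02, 0.00 and 1.82 in untreated biliary cells (3.81 ± 0.42). Both encode secreted antibacterial proteins, and neither overlapped between the groups, as held for 42.5% of all genes. Lcn2, the iron-sequestering lipocalin, had 82.5, 78.2 and 60.3 nuclear RPM in DDC biliary cells against 24.9, 16.4 and 16.9 in untreated biliary cells (1.88 ± 0.19). Prss22, an epithelial serine protease, had 93.7, 80.2 and 109 nuclear RPM in DDC biliary cells against 26.1, 13.1 and 19.1 in untreated biliary cells (2.26 ± 0.21). The trefoil peptide genes Tff1, Tff2 and Tff3, whose products protect mucosa, changed by 3.45 ± 0.48, 0.72 ± 0.20 and 0.94 ± 0.18. Tff1 was read at 0 in 2 of the 3 untreated libraries, and DESeq2 did not call it. Muc4 changed by 0.85 ± 0.20. The lower member was Pigr, which carries IgA into bile, with 15.8, 22.5 and 18.3 nuclear RPM in DDC biliary cells against 52.1, 37.3 and 36.0 in untreated biliary cells (-1.10 ± 0.20). In the fit of all 15 libraries 8 members were higher and 1 lower.

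Several of these genes opened at their own start, and their windows are shown to set the letters beside the gain. Sprr1a, a precursor of the cornified envelope of skin, had 24.7, 20 and 26.5 nuclear RPM in the region over its start, chr3:92485529-92486746, in DDC biliary cells against 1.13, 3.69 and 5.01 in untreated biliary cells (2.65 ± 0.34). Cldn4, a tight junction protein, had 146, 142 and 183 nuclear RPM in the region over its start, chr5:134939309-134948489, in DDC biliary cells against 47.6, 56.2 and 48.8 in untreated biliary cells (1.61 ± 0.12). The region over the start of Pglyrp1, chr7:18883826-18885296, had 31.5, 26 and 25.5 nuclear RPM in DDC biliary cells against 4.53, 2.46 and 5.47 in untreated biliary cells (2.52 ± 0.28). Groups did not overlap at any of the 3, but all 3 are regions called higher. The share of all regions without overlap was not counted. Sprr1a (chr3:92485832-92486131, minus strand) and Cldn4 (chr5:134946885-134947184, minus strand) each have 2 AP-1 matches, and Pglyrp1 (chr7:18884440-18884739, plus strand) has 1 NF-kB match. Slpi, an inhibitor of leukocyte proteases, rose by 2.75 ± 0.32 at its start, and its window, chr2:164356458-164356757 on the minus strand, has no match.
Sprr1a: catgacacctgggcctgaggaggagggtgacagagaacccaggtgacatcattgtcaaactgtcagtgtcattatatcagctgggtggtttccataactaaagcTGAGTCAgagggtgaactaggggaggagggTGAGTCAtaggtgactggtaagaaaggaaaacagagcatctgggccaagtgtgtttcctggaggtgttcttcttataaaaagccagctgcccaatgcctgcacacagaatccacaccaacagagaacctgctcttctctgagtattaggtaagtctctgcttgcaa
Cldn4: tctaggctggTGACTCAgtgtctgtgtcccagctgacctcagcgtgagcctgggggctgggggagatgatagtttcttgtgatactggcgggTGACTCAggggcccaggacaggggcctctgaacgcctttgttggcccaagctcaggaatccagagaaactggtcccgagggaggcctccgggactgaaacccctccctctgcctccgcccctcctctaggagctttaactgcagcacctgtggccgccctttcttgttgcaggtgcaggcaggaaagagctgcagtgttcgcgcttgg
Pglyrp1: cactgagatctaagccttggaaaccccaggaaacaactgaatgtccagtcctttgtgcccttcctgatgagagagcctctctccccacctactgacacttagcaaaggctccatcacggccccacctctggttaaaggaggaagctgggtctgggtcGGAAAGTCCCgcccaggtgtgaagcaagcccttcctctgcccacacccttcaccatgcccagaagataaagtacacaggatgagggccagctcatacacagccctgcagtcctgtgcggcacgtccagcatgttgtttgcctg
Slpi: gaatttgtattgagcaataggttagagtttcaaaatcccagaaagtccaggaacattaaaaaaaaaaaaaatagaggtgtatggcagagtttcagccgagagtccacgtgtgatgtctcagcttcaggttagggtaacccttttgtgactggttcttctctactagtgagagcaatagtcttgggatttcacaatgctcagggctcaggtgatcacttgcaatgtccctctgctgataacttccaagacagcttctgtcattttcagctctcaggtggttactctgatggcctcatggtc

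Over all 32851 start windows of the RefSeq table, 7.81% held the AP-1 motif and 1.63% the NF-kB motif. Among 1163 windows touched by a region called higher in DDC biliary cells, 15.5% held the AP-1 motif and 3.70% the NF-kB motif. Among 2525 windows touched by a lower region the shares were 3.84% and 1.03%, and among 12673 windows touched by a region that was not called 5.50% and 1.71%. Base composition moved with these classes, with a median of 57.0% G or C in windows of higher regions, 63.0% in those of lower regions and 60.3% in the uncalled. In windows under 55% G or C the AP-1 share was 22.9% under higher and 7.19% under lower regions. At 55% or more it was 10.3% and 2.86%. These shares describe letters in windows and were given no test.

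Of 30 biliary identity genes 8 were higher and 3 lower, with a median of 0.13 (all genes 14.4% higher, 13.3% lower, median -0.02). On the deposited scaling 14 were higher and 2 lower. Without DDC library 3 the counts were 5 higher and 2 lower. Krt19 (0.09 ± 0.16, adjusted p = 0.73) and Sox9, a duct transcription factor (0.21 ± 0.10), were not called. The sign of Krt19 turned without untreated library 1 (-0.14). Krt7 had 75.2, 70.9 and 79.3 nuclear RPM in DDC biliary cells against 51.0, 49.6 and 44.7 in untreated biliary cells (0.62 ± 0.12). Epcam, the adhesion molecule of biliary epithelium, had 232, 192 and 200 nuclear RPM in DDC biliary cells against 113, 122 and 144 in untreated biliary cells (0.72 ± 0.11). Groups were separate for both, as for 42.5% of all genes. The gain of Epcam lay away from its gene ends, start included, where the change was 0.05. Spp1, which encodes the secreted duct protein osteopontin, fell to 135, 225 and 198 nuclear RPM in DDC biliary cells, against 306, 322 and 336 in untreated biliary cells (-0.82 ± 0.14), and Tm4sf4 also fell (-0.82 ± 0.19). In the limma fit of all 15 libraries 0 biliary identity genes were called, while edgeR on the 6 libraries called 7 higher and 2 lower.

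Of 17 genes of duct secretion and transport, 7 were higher and 2 lower, with a median of -0.05 (all genes 14.4% higher, 13.3% lower, median -0.02). The lower members were 1 to 3 without a single library (3 without untreated library 1, 2 without DDC library 3, 1 without any other). Cftr, the chloride channel that drives bicarbonate secretion, had 108, 101 and 116 nuclear RPM in DDC biliary cells against 53.3, 47.1 and 57.4 in untreated biliary cells (1.03 ± 0.12). Abcc4, an efflux pump for conjugated bile acids, had 460, 424 and 460 nuclear RPM in DDC biliary cells against 320, 346 and 326 in untreated biliary cells (0.44 ± 0.08), but its gene-end regions went the other way (-0.14). The calcium-gated chloride channel gene Ano1 changed by 0.62 ± 0.15, and the water channel gene Aqp1 by 0.98 ± 0.20. P2ry2, the ATP receptor that drives chloride secretion, changed by 0.70 ± 0.14. Abcb1a, a drug efflux pump, had 74.5, 101 and 97.8 nuclear RPM in DDC biliary cells against 136, 193 and 157 in untreated biliary cells (-0.82 ± 0.14). Sctr, the receptor of secretin (-0.05), and the anion exchanger gene Slc4a2 (-0.26) were not called. Abcc4 alone was called in the fit of all 15 libraries.

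Matrix and TGF-beta genes were called in both directions, 14 of 29 higher and 3 lower, with a median of 0.36 (all genes 14.4% higher, 13.3% lower, median -0.02). Among the latent TGF-beta binding genes Ltbp1 (1.08 ± 0.10), Ltbp2 and Ltbp3 (1.31 ± 0.16) were higher and Ltbp4 was not called (0.16). Of the integrin chains that activate TGF-beta, Itgav and Itgb6 were higher, while Itgb8 (-0.43 ± 0.13) was lower, as was the receptor gene Tgfbr1 (-0.35 ± 0.10). Ltbp2 had 167, 134 and 131 nuclear RPM in DDC biliary cells against 49.9, 43.0 and 34.6 in untreated biliary cells (1.74 ± 0.14). Itgb6, the epithelial integrin chain that activates TGF-beta, had 260, 181 and 264 nuclear RPM in DDC biliary cells against 102, 109 and 95.5 in untreated biliary cells (1.18 ± 0.13, adjusted p = 0.0599 with all 15 libraries fitted). Smad3, the signal carrier of TGF-beta, had 352, 338 and 351 nuclear RPM in DDC biliary cells against 241, 189 and 175 in untreated biliary cells (0.79 ± 0.11), although its gene-end regions showed -0.09. No group overlapped at these 3 genes, as held for 42.5% of all genes. Pdgfb, the mitogen of stellate cells, rose by 1.19 ± 0.16, and Edn1, which encodes endothelin, by 1.29 ± 0.14. Thbs1, which releases latent TGF-beta, changed by 1.47 ± 0.29. Mesenchymal genes such as Vim (-0.10), Zeb1 (0.11), Snai2 (-0.51) and Fn1 (-0.30) were not called, and Cdh2 fell (-0.40 ± 0.11). In the fit of all 15 libraries 7 members were higher and 0 lower, and without a single library 12 to 16 were higher and 0 to 4 lower.

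Developmental and growth pathways showed smaller counts, to be set beside the shares over all genes (14.4% higher, 13.3% lower). Of 20 Notch genes, 5 were higher and 2 lower (median 0.12). Lfng, which modifies Notch receptors, had 104, 93.8 and 107 nuclear RPM in DDC biliary cells against 59.7, 50 and 43.1 in untreated biliary cells (0.99 ± 0.13), and the ligand gene Dll1 (0.84 ± 0.12) and the feedback gene Nrarp (0.73 ± 0.10) also rose. The Notch target Hey1 had 83.0, 78.8 and 87.8 nuclear RPM in DDC biliary cells against 129, 128 and 133 in untreated biliary cells (-0.64 ± 0.10), whereas Hes1 was not called (0.05). Without DDC library 1 or 3 the Notch counts were 3 higher and 1 lower, with all 15 libraries fitted 3 and 0, and on the deposited scaling 8 and 1. Among 20 targets of the Hippo-YAP pathway 6 were higher and 1 lower (median 0.19). Ccn1, a classic YAP target that encodes a matrix protein, was the one that fell, with 341, 367 and 343 nuclear RPM in DDC biliary cells against 498, 630 and 721 in untreated biliary cells (-0.80 ± 0.12). Axl, a receptor kinase, rose by 1.30 ± 0.25, and Ankrd1 was not called (-0.17). Of the 6 higher targets 0 were called in the fit of all 15 libraries, and 2 to 5 members were higher without a single library (2 without DDC library 2, 3 without DDC library 1). On the deposited scaling 10 were higher and 1 lower.

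Cell cycle genes, 19 tested, had 5 higher and 2 lower members (median 0.05, all genes 14.4% higher, 13.3% lower, median -0.02). With all 15 libraries fitted 1 was higher and 0 lower, without DDC library 1 the counts were 3 and 1, and on the deposited scaling 8 and 1. Cdk6, the kinase of cyclin D, had 214, 166 and 170 nuclear RPM in DDC biliary cells against 102, 95.9 and 80.4 in untreated biliary cells (0.98 ± 0.12), against -0.01 with gene-end regions alone. Ccnd1, which encodes cyclin D1, rose by 0.53 ± 0.10 (0.02 with gene-end regions alone) and Cdkn2a, the locus of the inhibitors of Cdk4 and of Mdm2, by 1.30 ± 0.18. Mki67 (0.32) and Top2a (0.40) were not called, and Ccnb1 fell (-0.59 ± 0.13). Ccnd1, Cdkn2a and Ccnb1 lost their calls with all 15 libraries fitted (limma, adjusted p = 0.511, 0.542 and 0.38). Among 16 targets of NRF2, the oxidative stress factor, 2 were higher and 1 lower (median 0.07), near or below the shares over all genes. Gsta4, a glutathione transferase for lipid peroxides, rose by 1.21 ± 0.15 and Hmox1, the heme oxygenase, by 0.44 ± 0.10, while Nqo1 was not called (0.26). Of 21 EGF ligands and growth factor receptors 4 were higher and 6 lower (median 0.02). Erbb4, a neuregulin receptor, fell to 57.7, 88.5 and 60.6 nuclear RPM in DDC biliary cells, against 141, 176 and 154 in untreated biliary cells (-1.20 ± 0.15). Egf fell by 0.79 ± 0.11. On the deposited scaling that list turned to 7 higher and 4 lower, and with all 15 libraries fitted 0 were higher and 1 lower. Its higher members were 1 without DDC library 3, and 2 without DDC library 1 or untreated library 3. Its lower members were 3 without DDC library 1, and 4 without DDC library 3 or untreated library 3.

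**Figure D4:**
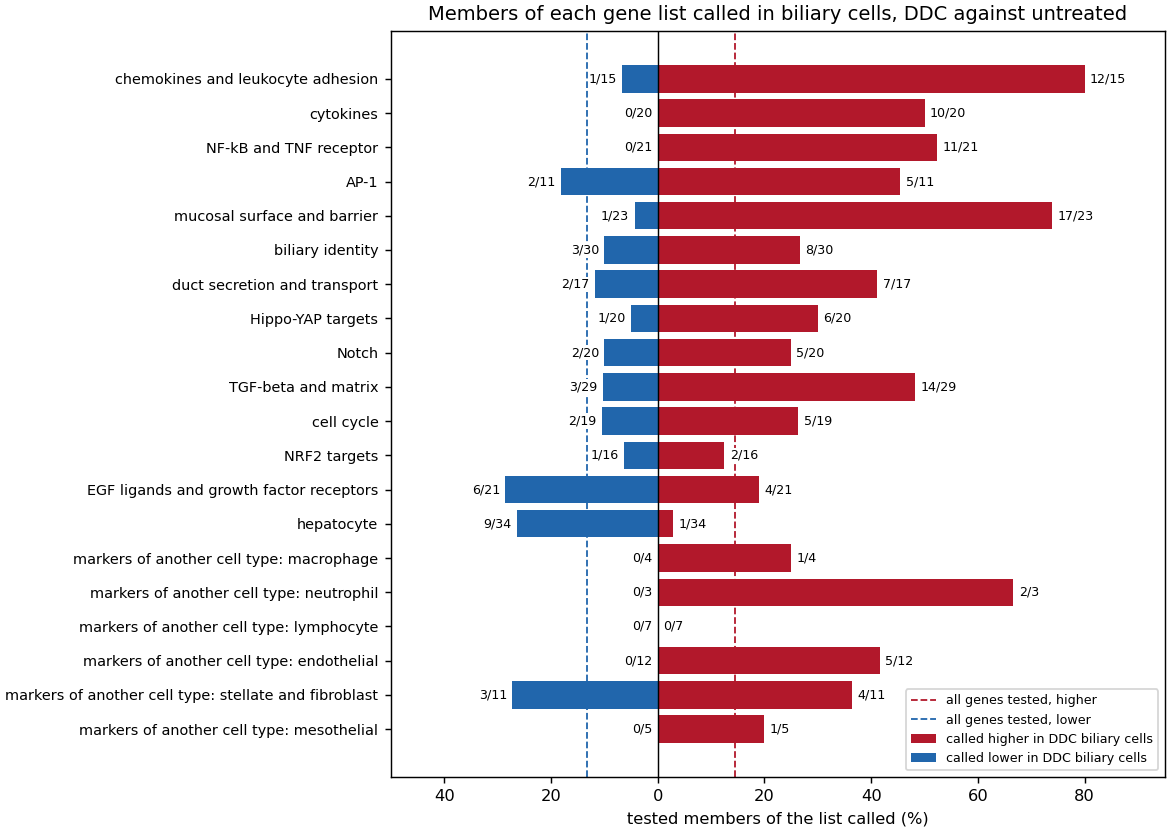
Share of the tested members of each gene list that were called higher (red, to the right) or lower (blue, to the left) in DDC biliary cells, with the counts beside the bars and the shares over all genes tested as dashed lines (14.4% higher, 13.3% lower). Chemokines (12 of 15) and mucosal genes (17 of 23) have the longest red bars among the pathway lists, and hepatocyte genes (9 of 34) and EGF ligands and receptors (6 of 21) have the longer blue bars among them. Among the markers of other cell types the longest blue bar is that of stellate and fibroblast markers (3 of 11). The lists were composed with earlier results of these data known, so the bars may come partly from the choice.

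Hepatocyte genes mostly had no call, with 1 of 34 higher and 9 lower and a median of -0.29 (all genes 14.4% higher, 13.3% lower, median -0.02). Without untreated library 1, the highest of its group in Alb and Hnf4a, the counts were 5 higher and 8 lower. The lower members were 5 without DDC library 1 and 6 without DDC library 3, and across the 6 fits without a single library the ranges were 0 to 5 higher and 5 to 11 lower. Ttr, which encodes the thyroxine carrier transthyretin, had 80.4, 121 and 95.5 nuclear RPM in DDC biliary cells against 180, 158 and 139 in untreated biliary cells (-0.69 ± 0.14), and Apob, the apolipoprotein of VLDL, fell by 0.93 ± 0.19. The liver development factors Foxa1 (-0.47 ± 0.11) and Prox1 (-0.52 ± 0.10) fell too. Alb (-0.57 ± 0.30, adjusted p = 0.173) and Hnf4a (0.10 ± 0.30, adjusted p = 0.841) were not called. The summed level of the list was 1730 to 2590 nuclear RPM in DDC biliary cells and 2190 to 3790 in untreated biliary cells, so the ranges overlapped, and 0 members were called in the limma fit of all 15 libraries (edgeR on the 6 libraries called 1 higher and 9 lower). In bulk libraries fewer cells of a type and a lower signal per cell cannot be told apart.

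Markers of other liver cells were measured beside the inflammatory lists. Their counts are to be set beside the shares over all genes (14.4% higher, 13.3% lower). Of 12 endothelial markers 5 were higher and 0 lower, with a median of 0.45, and 3 were higher without DDC library 1 or 3. Pecam1 had 56.4, 50.1 and 61.5 nuclear RPM in DDC biliary cells against 30.2, 27.9 and 24.1 in untreated biliary cells (1.0 ± 0.15), and Stab1 changed by 1.80 ± 0.29. The summed endothelial level was 250 to 300 nuclear RPM in DDC biliary cells and 161 to 216 in untreated biliary cells, without overlap. Macrophage markers had regions for 4 of 10 members, of which 1 was higher (Marco, 1.26 ± 0.35), and their sums overlapped, with 127 to 151 in DDC biliary cells and 120 to 146 in untreated biliary cells. Neutrophil markers were tested for 3 of 9 members, 2 of them higher (Csf3r and Itgam, with 0 higher without DDC library 1 or 3). Their sums did not overlap, with 15.9 to 25.4 nuclear RPM in DDC biliary cells and 9.34 to 12.5 in untreated biliary cells. S100a8, a neutrophil gene, had 0.391 to 0.971 nuclear RPM in DDC biliary cells and 0.00 to 1.51 in untreated biliary cells, which are few reads. Lymphocyte markers had 0 of 7 called by limma and 1 higher by edgeR (sums of 46.0 to 57.1 nuclear RPM in DDC biliary cells and 34.4 to 47.2 in untreated biliary cells). Stellate and fibroblast markers had 4 of 11 higher and 3 lower (5 lower without untreated library 1, and 2 without DDC library 3), with sums of 280 to 305 nuclear RPM in DDC biliary cells and 279 to 316 in untreated biliary cells. Mesothelial markers, which bear on Msln, had 1 of 5 higher (Wt1). Their sums did not overlap, with 211 to 246 nuclear RPM in DDC biliary cells and 176 to 203 in untreated biliary cells. Upk3b, a mesothelial gene, was at 0.00 to 1.94 in DDC biliary cells and 0.00 to 0.378 in untreated biliary cells, which are few reads. The part of these cells in the changes of the chemokine, cytokine and barrier genes was not tested.

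Gene ends, which include gene starts, differed from other places in the direction of their calls. Of regions that touch a start window 7.18% were higher and 14.9% lower, and of those that touch none 17.0% and 5.39%. On the deposited scaling these shares were 10.6% and 6.68% with a start window, and 21.5% and 4.04% without. At gene ends (within 1 kb) 7.12% of regions were higher and 13.8% lower in DDC biliary cells with a median change of -0.09, but on the deposited scaling, with mitochondrial reads in the total, these became 10.3% and 6.17% with a median of 0.04. In gene bodies 15.8% were higher and 4.88% lower, within 50 kb of a gene 19.6% and 4.25%, and beyond 50 kb 18.8% and 8.05%. On either scaling the higher share was lower at gene ends than elsewhere. Regions called higher had a median width of 963 bp and a median change of 1.52, and those called lower 1409 bp and -0.93. A test of genes on gene-end regions alone gave 878 of 12682 higher (6.92%) and 2101 lower (16.6%). The 9725 higher regions tied to genes fell on 5298 genes. Of these genes 297 had 5 or more higher regions, while 35 genes had 5 or more lower regions. Zbtb7c, a zinc finger gene, had 15 of 41 regions higher and 0 lower and changed by 1.01 ± 0.09 as a gene. Etv6, an ETS-family repressor, had 14 of 45 (0.56 ± 0.09). Both genes were picked for their number of higher regions, and over all regions tested 15.4% were higher. A strong single region lay at Stau2, chr1:16227155-16229043, with 99.6, 69.1 and 103 nuclear RPM in DDC biliary cells against 9.82, 8.20 and 10.5 in untreated biliary cells. Another lay 34443 bp from Tgif1, chr17:70887975-70889272, with 83.0, 58.4 and 67.2 nuclear RPM in DDC biliary cells against 8.31, 8.20 and 7.75 in untreated biliary cells. Their changes were 3.11 ± 0.19 and 2.94 ± 0.19. Both are among the 5 higher regions of lowest adjusted p, so the gap between their groups comes from the choice.

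**Figure D5:**
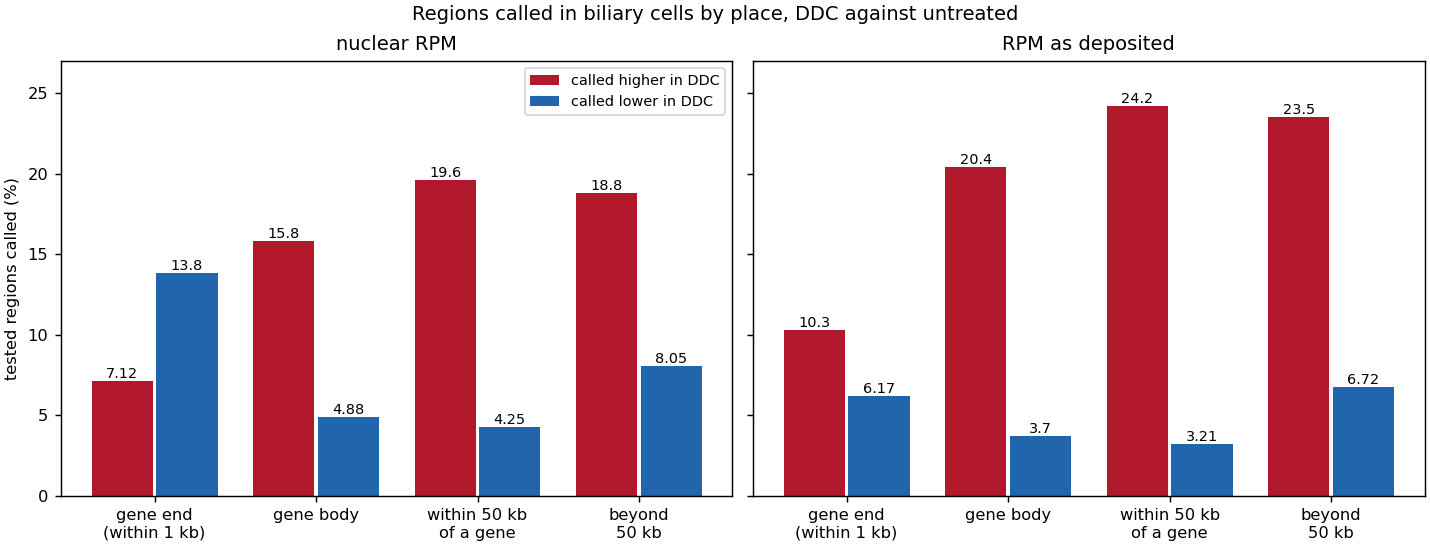
Share of tested regions called higher (red) and lower (blue) in DDC biliary cells by place relative to protein-coding genes, on nuclear RPM (left) and on RPM as deposited (right). Gene ends, which include gene starts, are the one class with more lower than higher regions on nuclear RPM (13.8% against 7.12%). This order turns on the deposited scale (6.17% against 10.3%).

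The DDC effect was set against that in hepatocytes in a fit of 12 libraries, as the difference of the log2 changes, biliary minus hepatocyte. It was higher than 0 for 68 of 16153 genes (0.421%) and lower for 92 (0.57%), while the hepatocyte comparison on its own called 1 of 15817 genes (0.00632%). Il23a differed by 4.2 ± 0.63 (adjusted p = 0.0225), with 4.27, 6.22 and 3.36 nuclear RPM in DDC hepatocytes against 9.92, 6.61 and 17.0 in untreated hepatocytes. The last 3 values rest on 10 reads in all. The differences of Csf2 (2.97 ± 0.66, adjusted p = 0.0526), Ccl2 (1.57 ± 0.47, adjusted p = 0.118) and Msln (2.12 ± 0.63, adjusted p = 0.118) did not pass, which does not show that the effects are alike. The marker genes were picked for their biliary response, which is part of this difference. Csf2 passed with all 15 libraries fitted (adjusted p = 0.0158). Ccl2 had 125, 92.9 and 80.6 nuclear RPM in DDC hepatocytes against 69.4, 23.1 and 42.6 in untreated hepatocytes. Untreated hepatocyte libraries held 201705 to 605309 nuclear reads, so 1 read there is 1.65 to 4.96 nuclear RPM. With all 12 libraries thinned to 201705 reads, limma called 0 genes (1591 at an unadjusted p under 0.05), and Il23a had an adjusted p of 0.195. Without single libraries the count ran from 0 to 1475. Reprogrammed hepatocytes of DDC mice, which share the treatment, had Ccl2 at 214, 161 and 231, Il23a at 30.3, 16.5 and 21.2, Csf2 at 77.9, 69.0 and 74.2 and Msln at 52.5, 27.5 and 45.2 nuclear RPM. The 3 values of each gene lay above all untreated biliary libraries. In DDC hepatocytes this held for Ccl2 but not for Il23a, Csf2 or Msln. The 4 genes were picked for their DDC response, and the share of all genes with this order was not counted.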

How the data were processed

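The submitters' processing notes name the mouse build mm10 and the tools Bowtie2, SAMtools, bedtools and MACS2. Versions, duplicate handling, read shifting and the way regions were merged are not stated there. The deposited table calls its values TPM, but they are RPM, the authors' reads per region per 1000000 reads in all regions: low values were whole multiples of 1 read in 100% of cases (tolerance 0.02). It holds 93217 regions of 179 to 48527 bp, of which 2 mitochondrial regions were dropped before each column was rescaled to 1000000, giving nuclear RPM. By overlap, or else by the nearest gene within 50 kb, 80441 regions (86.3%) could be assigned to 16526 of the 21883 protein-coding genes in the RefSeq table, and values were summed by gene.

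Tests used limma-trend (limma 3.58.1, R 4.3.3) on log2(nuclear RPM + 1) in the 6 biliary libraries alone, for features with a mean of 1 or more, with Benjamini-Hochberg adjustment over all features and calls at an adjusted p under 0.05. The difference from hepatocytes was an interaction term in 12 libraries. Recovered whole reads went into edgeR 4.0.16 (TMM) and DESeq2 1.42.0 as alternatives. The fit was tested on simulated data. Tables and figures used Python 3.11.15, numpy 2.4.6, pandas 2.3.3, scipy 1.17.1 and matplotlib 3.10.9.

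Members, the 20 gene lists (370 entries, 2 matched through synonyms) and the tests were chosen with earlier results of these data known. Named genes are the 4 markers, the 15 higher and 10 lower genes of lowest adjusted p with no overlap and a change of 1 or more in size, 7 lineage genes, called list members, and the 5 higher and 5 lower regions of lowest adjusted p. List members that were not called are named for contrast, and genes with the most higher regions were chosen after their values were seen. Some genes of the lists and of that rule are counted but not reported here by name. Counts carry sampling error that falls with depth, so the shallower untreated libraries limit the precision at low values, and the added 1 understates the change of features with few reads.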

Additional observations from a re-analysis of the deposited data

Results flagged for a closer look

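For 17 of the named genes and list members, 14 of them called in biliary cells, the DDC effect differed from that in hepatocytes in the test of the difference itself (biliary minus hepatocyte, log2, limma interaction in 12 libraries, 3 per group). Over all 16153 genes tested this difference was called higher for 0.421% and lower for 0.57%. The lists hold 369 distinct genes. Atf3, the stress-induced partner of Jun, had a difference of -1.80 ± 0.22 (adjusted p = 0.0119): it had 496 to 749 nuclear RPM in DDC biliary cells against 1150 to 1490 in untreated biliary cells, and 662 to 708 in DDC hepatocytes against 360 to 434 in untreated hepatocytes. Ccn1, the YAP target, had a difference of -1.28 ± 0.23, with 341 to 367 nuclear RPM in DDC biliary cells against 498 to 721 in untreated biliary cells, and 326 to 469 in DDC hepatocytes against 248 to 298 in untreated hepatocytes. For both genes each cell type's DDC and untreated libraries were separate, in opposite directions, and the hepatocyte change on its own was not called by limma (adjusted p = 0.159 for Atf3 and 0.331 for Ccn1). Among genes with a larger DDC effect in biliary cells, the difference was 4.2 for Il23a, 4.52 for Fam124b, 3.73 for Gm35751, 2.80 for Abcc8 and 2.41 for Sspn. These genes were chosen for their change in biliary cells, which is part of the difference, so its size there comes partly from the choice. The difference was 2.58 for Itgb6, 1.35 for its partner Itgav, 1.94 for Ltbp2 and 2.02 for Edn1, all of the TGF-beta and matrix list. Anxa3 differed by 2.40, Amotl1 by 1.84 and Nfkbia by 0.96. Itgb6 had 30.7, 30.2 and 21.8 nuclear RPM in DDC hepatocytes against 139, 44.6 and 63.9 in untreated hepatocytes, the last 3 resting on 70 reads in all. The other 3 were not called in biliary cells. Hes1, the Notch target, differed by -0.83 ± 0.17, with 378, 299 and 315 nuclear RPM in DDC hepatocytes against 188, 169 and 179 in untreated hepatocytes. Fosb, of the AP-1 list, differed by -1.55 ± 0.28. Lats2, the kinase of the Hippo pathway, differed by -3.46, a value that depends on the added 1 because all 3 untreated hepatocyte libraries were at 0. All 17 lost the call when libraries were thinned to the shallowest one (adjusted p = 0.195 to 0.638), and each was called in 3 to 7 of the 12 fits that left out a single library, with no change of sign. With a replicate block 6 lost the call, namely Sspn, Amotl1 and Ltbp2 (adjusted p = 0.0526 each), Lats2 (0.0555), and Nfkbia and Hes1 (0.0722 each).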

How the results depend on the processing

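In one fit of all 15 libraries the genes called fell to 541 and the regions called to 2741, and in that fit 113 of 177 gene results lost their call and 0 turned; the cause was not tested. Without single libraries the genes called ran from 2656 (without DDC library 1; 2748 without DDC library 3) to 5643 (without untreated library 1), and the regions called from 9308 to 20602 (9797 without DDC library 3). The mitochondrial difference ran from -11.25 to -7.15 percentage points. The difference of DDC effects gave 450 genes with all 15 libraries, 0 after thinning and 65 with a replicate block, and 0 to 1475 without single libraries, with 0 calls without DDC biliary library 1 or 2, untreated biliary library 2 or 3, or DDC hepatocyte library 1, and 691, 1475 and 714 without untreated hepatocyte library 1, 2 or 3. Same-numbered biliary libraries deviated from their group means with correlations of -0.143, -0.107 and 0. With 3 libraries per group these values cannot settle whether the numbers mark pairs. The replicate block gave 4297 genes and 15913 regions. Pseudocounts of 0.5 and 5, no filter, thinning, edgeR and DESeq2 kept both counts of the biliary comparison within 1.5 times. Regions within 1 kb of a gene end alone turned the sign of 14 of the 177 gene results: Krt19 (-0.03), Tnfsf10 (-0.01), Nfkb1 (-0.25), Ivl (-0.37), Abcc4 (-0.14), Smad3 (-0.09), Itgav (-0.32), Cdk6 (-0.01), Hbegf (-0.08), Erbb2 (-0.02), Fgfr2 (-0.12), Igf2r (-0.04), Cyp7a1 (0.12) and Pdgfra (0.57). Uncalled list members outside these results turned there as well, among them Hes1 (-0.21), Tnfaip3 (-0.29) and Sctr (0.35). Hnf4a, also uncalled, turned in edgeR (-0.04) and DESeq2 (-0.05). Without single libraries Hnf4a ran from -0.30 to 0.58 and Krt19 from -0.14 to 0.25. All 13 region results kept direction and call under every alternative run. Depth limits genes with few reads, above all in untreated hepatocytes.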

Other observations

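Some list members and regions not named above also differed between the biliary groups. The actin gene Acta2 had 9.43, 10.7 and 12.2 nuclear RPM in DDC biliary cells against 26.1, 22.5 and 28.2 in untreated biliary cells (-1.18 ± 0.21), while the collagen gene Col1a1 had 81.2, 91.6 and 83.6 nuclear RPM in DDC biliary cells against 50.6, 41.0 and 43.1 in untreated biliary cells (0.92 ± 0.13). Both belong to the stellate and fibroblast markers, whose summed levels overlapped between the groups. Ehf, an epithelial ETS factor, rose to 234, 229 and 213 nuclear RPM in DDC biliary cells, against 153, 158 and 127 in untreated biliary cells (0.63 ± 0.10). With all 15 libraries fitted in limma, none of these 3 genes was called (adjusted p = 0.283 for Acta2, 0.176 for Col1a1 and 0.0775 for Ehf). Among the regions of lowest adjusted p, one inside Cpeb2, a translation regulator, had 135, 147 and 142 nuclear RPM in DDC biliary cells against 243, 252 and 268 in untreated biliary cells (-0.84 ± 0.08). Another, at a gene end of Fhit, had 70.9, 81.9 and 67.7 nuclear RPM in DDC biliary cells against 148, 178 and 190 in untreated biliary cells (-1.21 ± 0.11). Both regions touch a start window.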
